A study of Mus musculus with 24 samples.

Results

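The comparison described here set 5 libraries of mouse brain RNA that held cerebellar genes and almost no Emx2 against 6 libraries that held forebrain genes. All 11 came from mice at postnatal day 25 (P25), out of 24 libraries in the series, 12 of them from P25. The libraries were chosen on a measured value: a normalised Emx2 value below 10 put a library among the cerebellum-rich ones, and a value of at least 200 put it among the forebrain-containing ones, with genotypes pooled. Values are read counts scaled to a common depth by the authors. The cerebellum-rich libraries were wild-type (WT) replicates 4, 5 and 6 and Shank2 knock-out (KO) replicates 5 and 6. The forebrain-containing libraries were WT replicates 1, 2 and 3 and KO replicates 1, 3 and 4. KO replicate 2, with an Emx2 value between the limits, was left out and is shown beside the others. The mice were C57BL/6N with intact Shank2 or a Shank2 knock-out, were labelled naïve for drug treatment in both genotypes, and the design text counts 6 mice per genotype at this age. Which part of Shank2 was removed, and whether WT and KO mice came from the same litters, the sources used here do not state. The sample codes of same-numbered WT and KO libraries begin alike, and the labels do not say what that shared beginning means. The labels call the tissue brain and the series title speaks of whole brain, yet in the 5 cerebellum-rich libraries Emx2 was at most 3.89, and Neurod6, at 139 to 234, was lower than in every forebrain-containing library but not near 0.

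Emx2 is a homeobox transcription factor of the developing dorsal forebrain, and Neurod6 a basic helix-loop-helix factor of excitatory neurons of cortex and hippocampus. Cbln3 is a secreted cerebellin made by cerebellar granule neurons, where it travels in a complex with Cbln1. The cerebellum contains very many granule neurons, a single layer of Purkinje cells that form its only output from the cortex, Bergmann glia and a few interneuron classes. The forebrain contains cortex, hippocampus, striatum, olfactory bulb, thalamus and hypothalamus, and its neurons use partly different members of the same receptor and channel families.

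Proximal promoters of 3 genes that mark the comparison are shown because they place the markers in the genome and let the letters upstream of a granule neuron gene be set beside those of a cortical one. Each is the 250 bases before the transcription start in RefSeq on GRCm38.p6, read 5′ to 3′ on the minus strand, at chr11:42321073-42321322 (Gabra6), chr14:55884257-55884506 (Cbln3) and chr6:55681264-55681513 (Neurod6). The RefSeq start of Cbln3 lies inside the gene as GENCODE M21 places it (55878913 to 55884392), so part of its window falls within that gene. Capitals mark the half-site TTGGCA of nuclear factor I, on either strand (TGCCAA is its reverse complement).
Gabra6: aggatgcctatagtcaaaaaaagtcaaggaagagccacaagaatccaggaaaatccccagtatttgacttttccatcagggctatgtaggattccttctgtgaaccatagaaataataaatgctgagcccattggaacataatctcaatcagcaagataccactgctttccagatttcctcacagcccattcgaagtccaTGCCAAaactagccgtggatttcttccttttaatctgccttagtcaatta
Cbln3: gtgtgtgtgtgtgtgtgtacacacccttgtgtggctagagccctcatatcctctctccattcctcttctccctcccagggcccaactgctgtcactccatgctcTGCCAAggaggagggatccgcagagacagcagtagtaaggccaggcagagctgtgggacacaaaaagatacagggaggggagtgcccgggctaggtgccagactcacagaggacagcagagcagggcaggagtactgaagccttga
Neurod6: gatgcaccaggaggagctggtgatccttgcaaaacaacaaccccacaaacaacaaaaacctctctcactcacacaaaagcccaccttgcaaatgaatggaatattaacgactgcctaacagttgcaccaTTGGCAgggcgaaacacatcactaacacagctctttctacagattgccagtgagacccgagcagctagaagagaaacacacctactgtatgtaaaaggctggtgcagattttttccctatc
The half-site began 50 bases before the RefSeq start of Gabra6, 146 bases before that of Cbln3 and 121 bases before that of Neurod6. The window of the granule neuron gene Fat2 (chr11:55312258-55312507), not printed, held 0 matches. That window lies inside the gene as annotated (55250609 to 55336564, minus strand). Its 0 matches therefore do not describe the bases before the annotated start of Fat2. None of the 4 windows held the E-box CAGATG or its reverse complement CATCTG. Of 27025 mouse promoter windows of this length, 12.5% held the half-site and 14.5% the E-box. Among the genes counted as differing in the comparison that follows, only 357 of 563 higher and 775 of 1143 lower symbols had a window, so their shares were not compared.

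The markers Emx2, Neurod6 and Cbln3 describe the comparison, and their values are given as a description. Emx2 (chromosome 19, 59458372 to 59465357, plus strand) had values of 0 in WT 4, WT 6 and KO 6, 0.834 in WT 5 and 3.89 in KO 5. In the 6 forebrain-containing libraries Emx2 ran from 200 through a median of 290 to 409. The library nearest the upper limit was WT 3, with 199.7, which meets the limit only as a rounded value. KO 2, left out, had 31.4. Neurod6 (chromosome 6, 55677822 to 55681263, minus strand) was 139 to 234 in the cerebellum-rich libraries and 1419 to 3851, median 1912, in the forebrain-containing ones. Cbln3 (chromosome 14, 55878913 to 55884392, minus strand) was 55206, 61110 and 54064 in WT 4, 5 and 6, and 56050 and 56632 in KO 5 and 6, which is 56612 ± 2693 (SD, n = 5). Cbln3 was 21.2 to 37.2 in 5 of the 6 forebrain-containing libraries and 2373 in WT 3. Neurod6 and Cbln3 did not overlap between the sets of libraries, while for Emx2 this was fixed by the rule. WT 3 carried a Cbln3 level that its 5 companions did not.

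**Figure D1:**
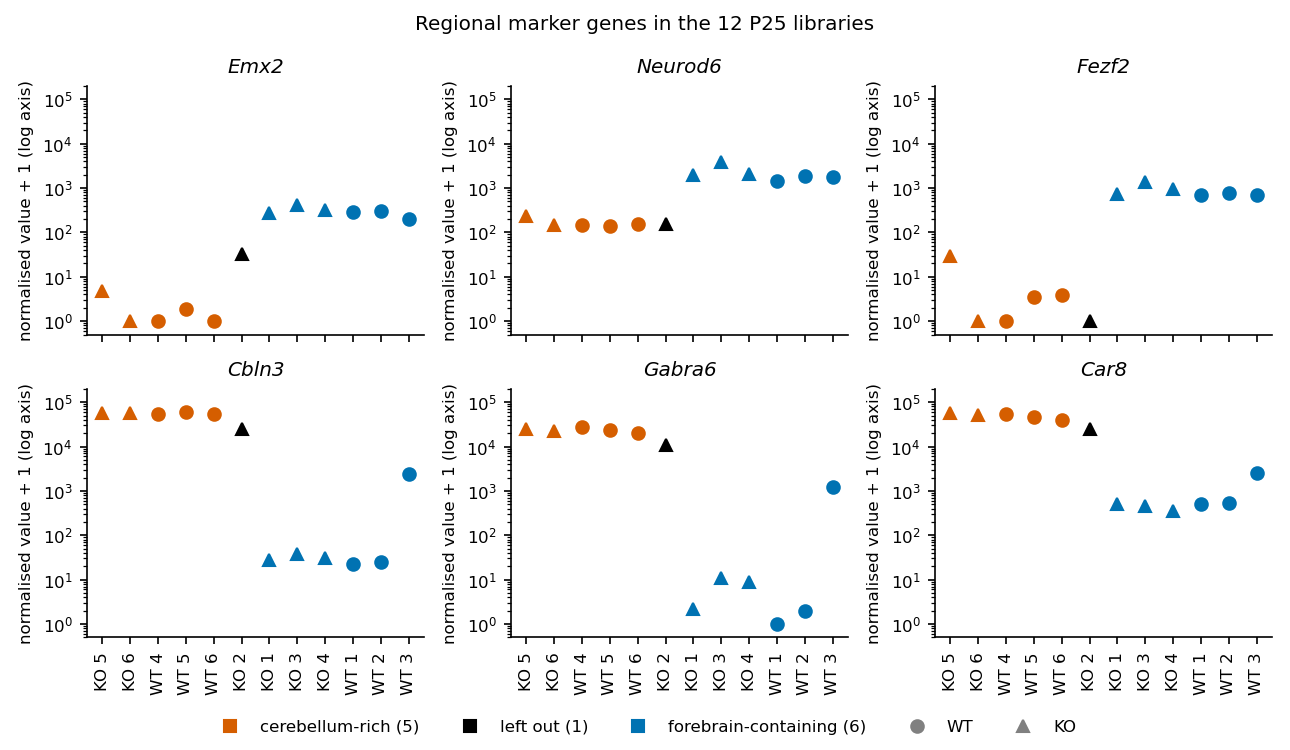
Normalised values plus 1 on a log axis for Emx2, Neurod6, Fezf2, Cbln3, Gabra6 and Car8, 1 point per P25 library, circles for WT and triangles for KO. WT 3 is the forebrain-containing library with a raised Cbln3 value (2373), and KO 2, left out of the comparison, lies between the sets for Emx2 and Cbln3.

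Facts of the libraries that bear on everything below are these. Recovered reads ran from 32617430 to 40787586 in the cerebellum-rich and from 27552844 to 40450835 in the forebrain-containing libraries, and genes with at least 1 read from 24613 to 25122 and from 24961 to 25974. The labels mark all 5 cerebellum-rich libraries as a second batch, and 5 of the 6 forebrain-containing ones carry no such mark, so batch and library type cannot be fully told apart. The exception is KO 4, a second-batch library that contained forebrain. In bulk tissue, fewer cells of a type and less RNA per cell cannot be told apart.

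A difference is given as the mean of log2(value + 1) over the cerebellum-rich libraries minus that over the forebrain-containing ones. A gene was counted when the sets of libraries did not overlap and the difference was at least 4-fold, 2 on this scale. Of 17982 genes whose values averaged 10 or more over the 11 libraries, 570 were counted higher in the cerebellum-rich libraries (3.17%) and 1153 lower (6.41%). Without the fold limit, 4564 genes lay above every forebrain-containing library (25.4%) and 4504 below (25%). The median difference over all genes was 0.00. Because the library types were picked on their own RNA, these counts and those of each list below describe the types and carry no test. The shares of 3.17% and 6.41% are the ones to set beside the counts of each list. The median SD within a type was 0.14 log2 units over the 5 cerebellum-rich and 0.21 over the 6 forebrain-containing libraries.

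The 10 largest differences toward cerebellum among genes with a mean of at least 100 were Gabra6, Cbln3, Fat2, Cnpy1, Crtam, Sycp1, Skor2, Ppp1r17, Nrk and En2. Gabra6 encodes the GABA-A receptor alpha subunit typical of granule neurons. Gabra6 was 19961 to 27860 in the cerebellum-rich libraries, 0 to 9.85 in 5 forebrain-containing libraries and 1230 in WT 3, a difference of 11.36 (12.78 without WT 3). Fat2, an atypical cadherin of granule neurons and their parallel fibres, was 42073 ± 4396 (SD, n = 5) against a forebrain-containing median of 31.5. Crtam, a cell adhesion molecule better known from lymphocytes, was 1727 to 2270 in the cerebellum-rich libraries and at most 5.99 in the forebrain-containing ones other than WT 3, which had 112. Sycp1, a protein of the meiotic synaptonemal complex, was 697 to 779 in the 5 cerebellum-rich libraries, 29.4 in WT 3 and at most 1.09 in the other 5. En2, an engrailed homeobox factor of the midbrain and cerebellum, was 6095 to 7845 against 5.99 to 537. In each of the genes just described, the highest forebrain-containing value was that of WT 3.

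The 10 largest differences toward forebrain included Ddn, Lhx2, Crym, Kcnv1, Gda, Fezf2, Gm11549, Ankrd63 and Nrgn. Ddn, dendrin, a protein of forebrain dendrites whose mRNA is itself found there, was 20377 to 39182 in the forebrain-containing libraries. Its cerebellum-rich values were 13.9, 28.4 and 40.2 in WT 4, 5 and 6, 41.9 in KO 6 and 659 in KO 5. Fezf2, which specifies deep-layer projection neurons, was 0 to 2.87 in 4 cerebellum-rich libraries and 29.2 in KO 5, against 693 to 1398. Crym, a thyroid hormone binding protein, was 3.34 to 68.0 against 2492 to 3349. KO 5 had the highest cerebellum-rich value of Ddn, Lhx2, Crym, Kcnv1, Gda, Fezf2, Gm11549 and Nrgn, and KO 6 that of Ankrd63.

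The cell types of the cerebellar cortex were each represented. Of 29 granule neuron genes, 21 were counted higher and 0 lower, with a median difference of 3.45. After Gabra6, Cbln3 and Fat2 came Uncx and Barhl2, homeobox factors, at 6.58 and 5.84, and Cbln1 at 5.67. Cbln1 was 30187 to 34388 in the cerebellum-rich libraries, 222 to 960 in 5 forebrain-containing libraries and 2351 in WT 3. Slc17a7, the vesicular glutamate transporter of granule neurons and of cortical neurons alike, was 26415 to 31014 against 29328 to 52849, and these ranges overlapped.

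Of 25 Purkinje cell genes, 19 were counted higher and 1 lower, median 3.10. The largest differences were those of Skor2, a transcriptional corepressor (7.79), Ppp1r17, a phosphatase inhibitor (7.59), Pcp2, a modulator of G-protein signalling (6.93), and Lhx1 (6.32). Car8, a carbonic anhydrase-like protein that binds the inositol trisphosphate receptor, was 46256, 54140 and 39407 in WT 5, 4 and 6 and 57797 and 50664 in KO 5 and 6, against 354 to 2564. Bcl11a was counted lower, at 360 to 481 against 1714 to 3296. Bcl11a is expressed by cortical and striatal neurons too, as is Foxp2, which lay below every forebrain-containing library at a difference of -1.32.

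Of 16 genes of Bergmann glia and cerebellar interneurons, 5 were counted higher and 0 lower, median 1.70. Without the fold limit, 10 lay above every forebrain-containing library and 3 below, the lowest at -1.49, and 3 overlapped. Gdf10, a growth factor of Bergmann glia, was 7968 to 10558 against 284 to 488. Tfap2b and Pax2, factors of the inhibitory interneuron lineage, differed by 4.75 and 5.51. Pvalb, the calcium-binding protein of Purkinje cells and molecular layer interneurons, which cortical basket cells share, was 12156 to 15990 against 294 to 2786. Slc6a5, the glycine transporter of Golgi cells and of brainstem glycinergic neurons, was 1283 to 1539 in the cerebellum-rich libraries and 1.99 to 65.7 in 5 forebrain-containing ones. In WT 3 it was 1692, above all of them, so Slc6a5 overlapped and was not counted.

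Forebrain neurons showed the reverse. Of 30 genes of cortical and hippocampal excitatory neurons, 21 were counted lower and 0 higher, median -4.43. Beside Lhx2, Fezf2 and Nrgn, Emx1 was 0.821 to 10.7 in the cerebellum-rich libraries against 215 to 671. Nptx1, Neurod2 and Cux1 lay above every forebrain-containing library, at differences of 1.49, 1.18 and 0.71, and granule neurons are known to express Neurod2 as well. Of 24 genes of cortical interneurons, 16 were counted lower and 1 higher, the latter being Pvalb, with a median of -4.80. Vip, a peptide of disinhibitory interneurons, was 1.82 to 23.3 against 670 to 1454, a difference of -7.41. Dlx5, a factor of the ganglionic eminence lineage, differed by -6.73.

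Of 24 genes of striatal projection neurons, 12 were counted lower and 1 higher, median -3.29. Drd1, the dopamine receptor of the direct pathway, was 5.84 to 14.6 in the cerebellum-rich libraries. Its forebrain-containing values were 2425 in WT 1 and 1560 in WT 2, and 183 to 446 in the other 4. WT 1 and WT 2 thus had the highest values of this gene. Ebf1, which striatal neurons share with the Purkinje lineage, was the gene counted higher, at 3.23. Of 24 hippocampal genes, 9 were counted lower and 2 higher, the latter being Calb1 and Tdo2, median -1.19. Cpne4 and Fibcd1 differed by -5.53 and -5.21.

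Lists of other brain regions were not uniform within a type. Of 24 olfactory bulb and neuroblast genes, 12 were counted lower and 2 higher, median -2.33. Cdhr1, a cadherin of mitral cells, was 7414 in KO 4 and 235 to 428 in the other 5 forebrain-containing libraries, against 6.67 to 22.1. Of 21 hypothalamic genes, 8 were counted lower and 0 higher, median -2.36. Cartpt, a peptide precursor, was 0 to 35.0 against 180 to 799. Of 20 midbrain genes, 2 were counted higher, En2 and Barhl2, and 1 lower, Tfap2d. Slc6a3, the dopamine transporter, was 2025 in WT 3 and 1529 in KO 1, and 5.09 to 140 in the other 4 forebrain-containing libraries. Its cerebellum-rich values of 0 to 14.6 overlapped with these. Of 23 genes of thalamus and habenula, 4 were counted higher and 4 lower. Differences within the list ran from -6.10 to 4.71, median -0.58. Summed over the list, values were 65834 to 77885 in the cerebellum-rich and 10760 to 25525 in the forebrain-containing libraries. Slc17a6, the vesicular glutamate transporter of the thalamus and brainstem, was 30.2 to 461 against 784 to 5172.

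Of 36 genes of pons, medulla and spinal-type hindbrain, 18 reached the mean of 10, of which 1 was counted higher and 4 lower. Tlx3, a homeobox factor, was 107, 532 and 401 in WT 4, 5 and 6 and 62.2 and 189 in KO 5 and 6, against 0 to 8.92, so it varied widely among the cerebellum-rich libraries. Chat, the acetylcholine-synthesising enzyme, was 0 in 3 cerebellum-rich libraries, 0.834 in WT 5 and 62.2 in KO 5, against 13.1 to 262. A value of 0 allows up to 3 reads in a library, a limit that covers counting error only. Of 13 pituitary genes tested, 1 was counted lower, Drd2, which striatal neurons share. Prl, prolactin, was 3576 in WT 3 and 0 in the other 10 libraries, and Pomc was 13130 in WT 3 and at most 99.7 elsewhere. The median difference of the pituitary list was -1.47. It was -2.47 by another measure for the 4 genes at 0 in every cerebellum-rich library. For these, log2 of the mean forebrain-containing value was set against log2 of a floor of 3 reads. That measure is not comparable with the first, and for Prl the mean comes from WT 3 alone. Without WT 3 the difference of Pomc was -0.51.

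**Figure D2:**
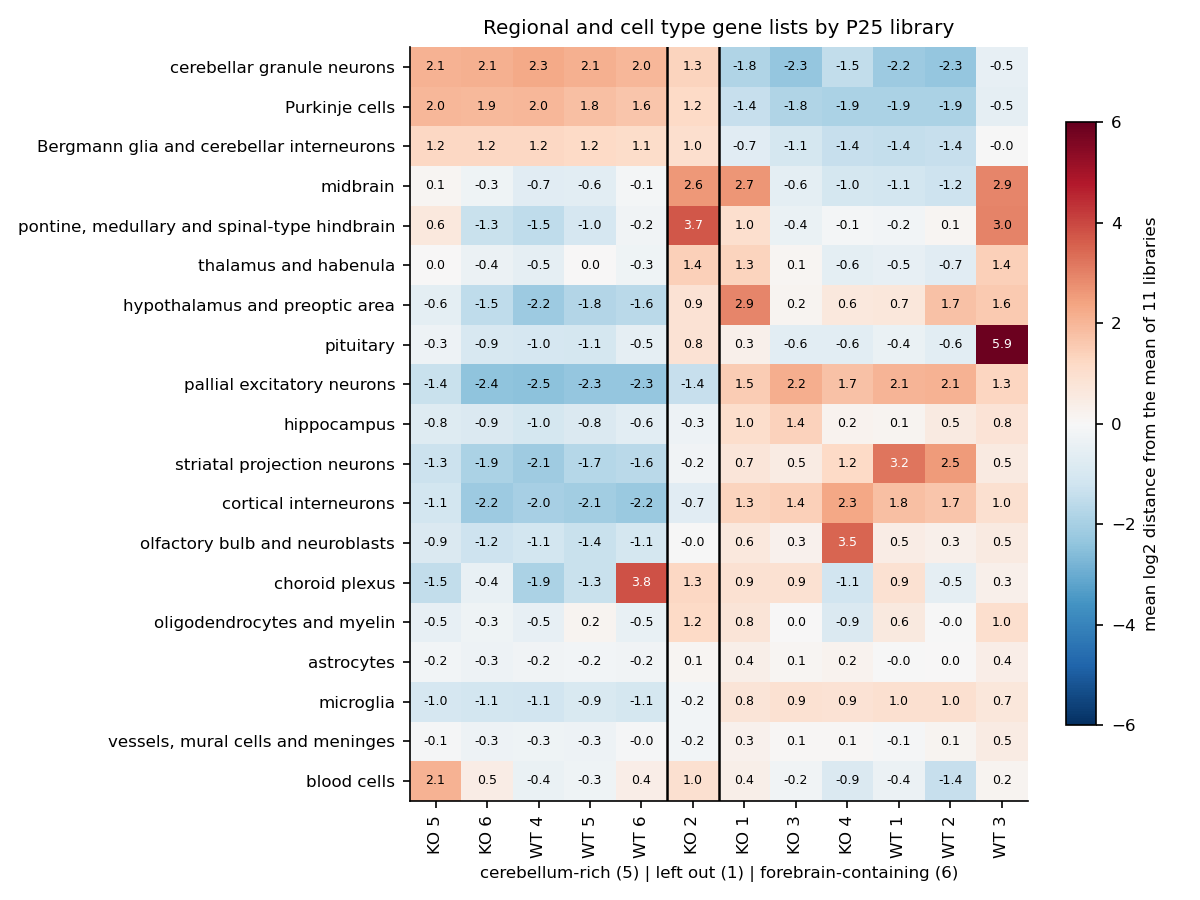
Mean log2 distance of each list's genes from their mean over the 11 libraries, for 19 regional and cell type lists (rows) in the 12 P25 libraries (columns, with KO 2 between the types). The cerebellar lists are high in all 5 cerebellum-rich libraries, while pituitary stands out in WT 3 (5.87), choroid plexus in WT 6 (3.82) and olfactory bulb in KO 4 (3.47).

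Glia and vessels differed in part. Each of the 20 microglial genes lay below every forebrain-containing library, and 8 of them by 4-fold or more, median -1.90. P2ry12, the purinergic receptor of resting microglia, was 197, 292 and 214 in WT 4, 5 and 6 and 251 and 236 in KO 5 and 6, against 914 to 1421. Cx3cr1, the fractalkine receptor, was 258 to 384 against 1357 to 1792. Summed over the list, microglial values were 4593 to 5444 in the cerebellum-rich and 16003 to 19960 in the forebrain-containing libraries. Of 28 oligodendrocyte genes, 0 were counted in either direction. Without overlap 5 lay below, a smaller share than the 25% of all tested genes that did. The 5 were Pdgfra and Cspg4, which mark oligodendrocyte precursors, and Olig1, Olig2 and Sox10, factors of the whole lineage. Pdgfra was 628 to 970 against 2079 to 3044.

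Of 24 astrocyte genes, 8 lay above and 8 below without overlap, where 25.4% and 25% of all tested genes did. Slc6a11 and Lhx2 were the 2 counted, both lower. The glutamate transporters split. Slc1a3, abundant in Bergmann glia, was 46647 to 52978 against 14557 to 25329, and Slc1a2, the main transporter of forebrain astrocytes, was 22020 to 24225 against 62586 to 99046. Of 24 genes of vessels, mural cells and meninges, 1 was counted, Crym, a cortical gene too, and the list's median was -0.04. Crym was counted lower, as were 6.41% of all tested genes. Of 24 choroid plexus genes, 0 were counted. Sostdc1, a secreted inhibitor made by choroid plexus, was 989 in WT 6 and 0 to 14.6 in the other cerebellum-rich libraries, against 31.7 to 111. Of 9 blood genes, Ngp of neutrophils was counted higher, with 208 in KO 5 and 13.9 to 22.8 in the other 4 cerebellum-rich libraries, against at most 9.39.

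Ionotropic and metabotropic glutamate receptors bind the main excitatory transmitter. Of 36 such genes, with auxiliary subunits, 7 were counted higher and 7 lower, median -0.77, and within families the members moved apart. Among NMDA receptor subunits, Grin2c was 16242 to 20298 against 1347 to 2327, and Grin2b was 731 to 1257 against 13116 to 26177. The obligatory subunit Grin1 was 8953 to 11298 against 9172 to 13228, so its ranges overlapped. The delta receptor gene Grid1 differed by -1.33 without overlap. Among AMPA receptor subunits, Gria4 differed by 2.03, Gria3 and Gria2 differed by -0.85 and -0.40 without overlap, and Gria1 overlapped. The metabotropic receptor gene Grm5 was 175 to 414 against 5991 to 8602. Grm4, the presynaptic receptor of parallel fibres, was 25106 to 36253 against 1094 to 2897. The AMPA receptor auxiliary proteins Cnih3, Cacng3, Shisa7 and Cacng8 differed by -4.12, -3.58, -3.24 and -2.77, and Shisa6 by 2.42.

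Receptors for GABA and glycine showed the same kind of split. Of 25 genes, 2 were counted higher, Gabra6 and Gabrd, and 4 lower, median -0.85. Over all tested genes the shares were 3.17% and 6.41%. Gabrd, the subunit of extrasynaptic receptors that pairs with Gabra6, was 7134 to 8571 against 833 to 3357. Gabra5, another extrasynaptic subunit abundant in hippocampus, was 5.72 to 45.7 against 1540 to 2627, with its highest cerebellum-rich value in KO 5. Gabra3 and Gabrg3 differed by -3.48 and -3.95. Gabrb2, of the commonest synaptic receptor, lay above without overlap at 0.66.

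Potassium channels set the firing pattern of neurons. Of 39 voltage-gated potassium channel genes, 2 were counted higher and 16 lower, median -1.45, where 3.17% and 6.41% of all tested genes were. The channels of the fast-spiking Kcnc family moved apart. Kcnc1 was 27764 to 33526 against 6699 to 9340, and Kcnc2, typical of cortical interneurons and thalamus, was 15.5 to 172 against 3076 to 4337. Kcng4, a silent modulatory subunit of Purkinje cells, differed by 4.30. The silent subunits Kcnv1, Kcnf1 and Kcng1 differed by -8.22, -6.22 and -6.02. Kcnq5, a channel of the M-current, differed by -5.14, and Kcnip2, an auxiliary subunit of A-type channels, by -4.37.

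Of 28 sodium, calcium and HCN channel genes, 0 were counted higher and 4 lower, median -0.19. Among all tested genes, 3.17% were counted higher and 6.41% lower. Cacna1a, the P/Q-type calcium channel of Purkinje and granule cells, was 25084 to 30000 against 6119 to 9521, a difference of 1.86 that fell short of 4-fold. Cacna1g, a T-type channel, also lay above, at 1.84, while Cacna1h, another T-type channel, was 135 to 204 against 2885 to 4570. The sodium channel genes Scn3a and Scn3b differed by -4.34 and -4.44, and Scn1a, Scn2a and Scn8a overlapped.

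Of 46 receptors for monoamines, acetylcholine, adenosine, histamine, opioids and cannabinoids, 0 were counted higher and 25 lower, median -2.45. Chrm1, the muscarinic receptor of cortical pyramidal cells, was 12.4 to 22.8 in 4 cerebellum-rich libraries and 145 in KO 5, against 3351 to 7064. The serotonin receptor genes Htr3a and Htr1a differed by -6.74 and -6.15. The opioid receptor genes Oprd1, Oprk1 and Oprm1 differed by -4.77, -4.23 and -2.91. Cnr1, the cannabinoid receptor of parallel fibre and interneuron terminals, lay above without overlap, at 12569 to 18215 against 4805 to 6871. Chrnb2 also lay above, at 1.11. Of 27 transporters and transmitter enzymes, 2 were counted higher, Slc1a6 and Hdc, and 3 lower, beside 3.17% and 6.41% of all tested genes. Slc1a6, the glutamate transporter of Purkinje cells, was 6687 to 7807 against 205 to 742. Slc17a8, a vesicular glutamate transporter, differed by -4.62, and Slc6a3 by -5.57 with overlap.

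Cerebellins bridge presynaptic neurexins and postsynaptic delta receptors. Of 21 genes of this system, 3 were counted higher, Cbln3 and Cbln1 among them, and 6 lower, median -1.09. Cbln2 was 2.87 to 35.0 against 748 to 1697, and Cbln4 was 4.90 to 36.9 against 269 to 1017. The related C1q-like genes C1ql2 and C1ql3 differed by -3.18 and -3.63. Nrxn2 and Nrxn3, presynaptic partners, overlapped, at differences of 0.37 and 0.09. Cbln1 and Cbln3 thus lay above every forebrain-containing library, and Cbln2 and Cbln4 below.

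Of 35 postsynaptic scaffold and signalling genes, 1 was counted higher and 6 lower, median -0.50. The shares over all tested genes were 3.17% and 6.41%. Homer3, the Homer protein of Purkinje cells, was 5851 to 8350 against 216 to 618, whereas Homer1 and Homer2 lay below without overlap at -1.75 and -1.30. Camk2a, the alpha subunit of the synaptic kinase, was 2983 to 6122 against 52774 to 120211, while Camk2b, its beta subunit, overlapped at -0.10. Dlgap2 and Lrfn2 differed by -5.41 and -5.01. Shank3 lay above without overlap, at 11137 to 14688 against 5637 to 10703, and Shank1 overlapped at -0.48.

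**Figure D3:**
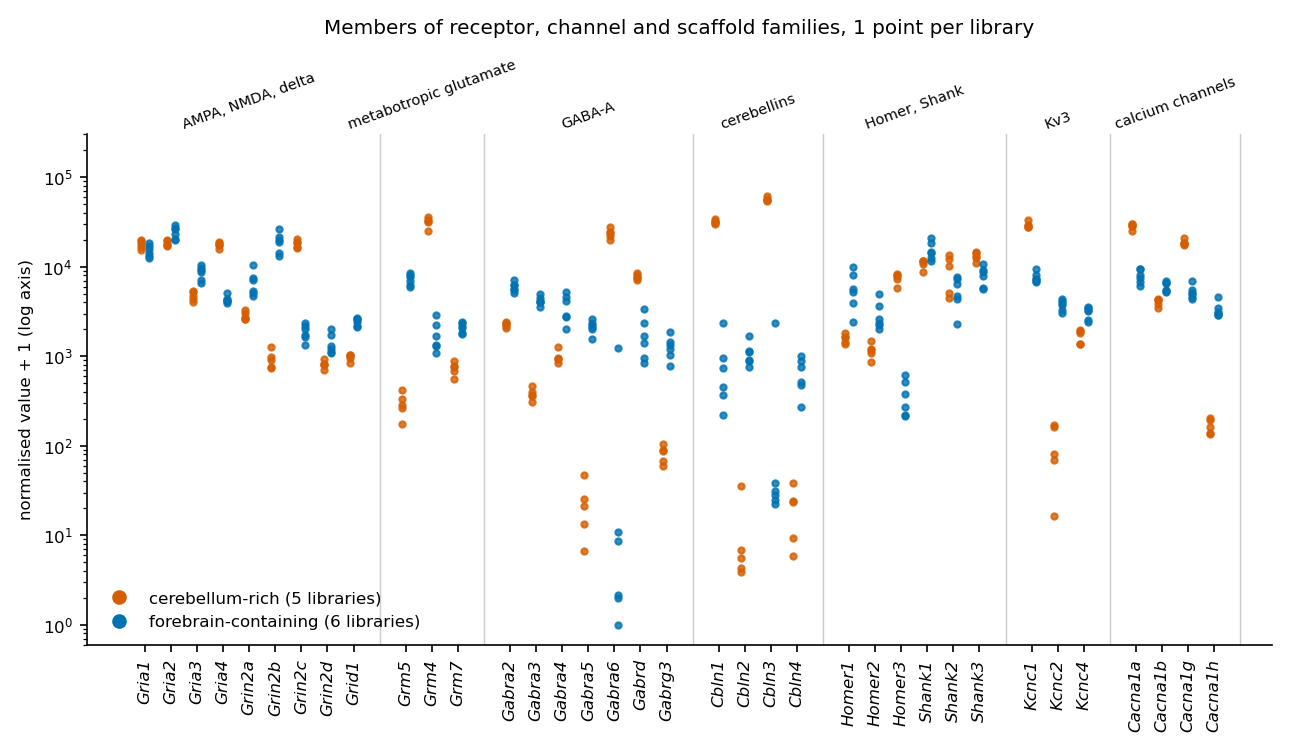
Normalised values plus 1 (log axis) of receptor, channel and scaffold genes, 1 point per library, orange for the 5 cerebellum-rich and blue for the 6 forebrain-containing libraries. Related genes lie on opposite sides, as with Grin2c and Grin2b, Gabra6 and Gabra5, Cbln1 and Cbln2, Homer3 and Homer1, and Kcnc1 and Kcnc2.

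Of 25 immediate early genes, which neurons switch on with activity, 0 were counted higher and 8 lower, median -1.17. Egr3 was 7.51 to 34.0 against 651 to 2513. Arc was 509 to 673 in the cerebellum-rich libraries and 1155 in KO 1, 3001 in KO 3, 9013 in KO 4 and 1872 to 2809 in the WT libraries. Ier2, Gadd45b and Jun lay above without overlap, at 1.09, 0.65 and 0.45, where 25.4% of all tested genes lay above. Of 33 patterning factors tested, 9 were counted higher and 9 lower. The 9 higher were En2, Pax2, Pax6, Lhx5, Meis1, Zic1, Zic2, Zic4 and Zic5. The 9 lower included Emx2, on which the libraries were chosen, and Lhx2, Emx1, Six3, Otx1, Meis2, Sp8 and Wnt1. Wnt1 was listed at 0 in every cerebellum-rich library. Zic1 was 30907 to 37869 against 544 to 3219, and Six3, a factor of the anterior forebrain, was 0 to 5.83 against 87.6 to 713.

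Of 15 genes often taken as references, 0 were counted, and 9 lay below and 1 above without overlap. Of all tested genes, 25% lay below and 25.4% above. Gapdh was 37222 to 40298 against 45030 to 49659, a difference of -0.30, and Tbp was 1440 to 1706 against 870 to 1036, at 0.75. Among 12 genes of the mitochondrial genome, 2 lay below without overlap, where 25% of all tested genes did. Mitochondrial reads made up 2.88% to 3.44% of the cerebellum-rich and 3.14% to 4.02% of the forebrain-containing libraries.

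Libraries that took no part in the choice of genes were placed on the scale set by both types, where 0% is the forebrain-containing mean and 100% the cerebellum-rich mean of a gene. KO 2 lay at a median of 48.7% over the 570 genes counted higher (quartiles 40.3% and 59.2%) and 80.1% over the 1153 counted lower. Its Cbln3 value was 25148 and its Gabra6 value 10883, while Fezf2 was 0. KO 2 also held Slc6a5 at 5903, above every one of the 11 libraries. At postnatal day 14, KO 1 and WT 3 of that age lay at 32.6% and 22.1% over the genes counted higher and at 63.9% and 64.1% over those counted lower. The other 10 P14 libraries lay between -2.94% and 3.57% over the genes counted higher. Over the genes counted lower these 10 ran from -12.3% to 46.9%, with WT 5 of that age the highest. Age differs between these libraries and the ones that set the scale. Among the forebrain-containing libraries themselves, WT 3 lay at 4.96% and 23.3%, the highest of the 6 on both axes.

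**Figure D4:**
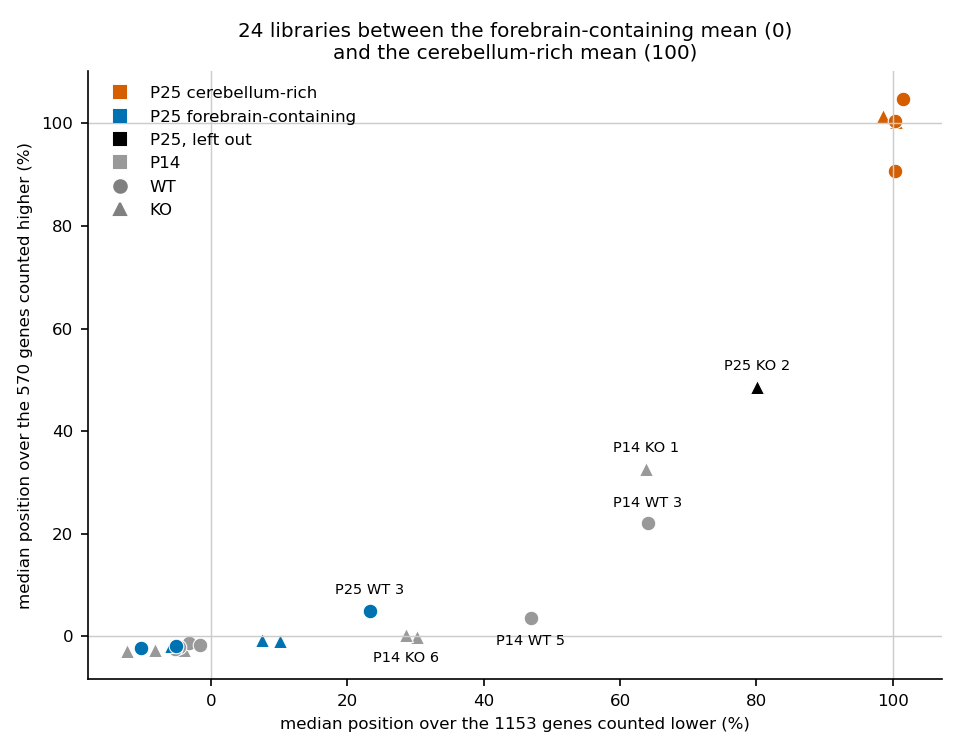
Median position of each of the 24 libraries over the 570 genes counted higher (vertical axis) and the 1153 counted lower (horizontal axis), in percent of the way from the forebrain-containing mean to the cerebellum-rich mean. P25 KO 2 sits at 48.7% and 80.1%, and 2 P14 libraries sit between the clusters, at 32.6% and 22.1% on the vertical axis.

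KO 4 was the sole forebrain-containing library of the second batch, so the values below rest on 1 library. An effect of batch was not tested. The olfactory bulb score of KO 4 (3.47) lay far from those of the other forebrain-containing libraries. The genes were counted with the same cerebellum-rich libraries, and the share over all tested genes was not taken. When genes were counted against the 5 first-batch forebrain-containing libraries alone, 597 were higher and 1161 lower. KO 4 lay on the forebrain side of every cerebellum-rich library for 588 of the 597 (98.5%) and 1140 of the 1161 (98.2%). The difference against KO 4 was also at least 4-fold for 457 of the 597 (76.5%) and 977 of the 1161 (84.2%). The median difference against KO 4 was 2.76 over the 597 genes and -3.11 over the 1161, where against the first-batch libraries it was 2.84 and -3.14. Among the members described above, the difference of Gabra6 was 11.40 within the second batch, that of Grin2b -4.38 and that of P2ry12 -2.21. Cdhr1 differed by -9.24 within the second batch and by -5.46 over all libraries. En2 differed by 9.93 within the second batch.

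Shank2, the gene targeted in the KO, encodes a scaffold of the excitatory postsynaptic density. Among the cerebellum-rich libraries it was 13358, 12335 and 10131 in WT 4, 5 and 6 and 5153 and 4475 in KO 5 and 6. Among the forebrain-containing ones it was 7365, 7729 and 6382 in WT 1, 2 and 3 and 2315, 4380 and 4724 in KO 1, 3 and 4. Within each type every KO library lay below every WT library. KO values averaged 40.3% of the WT mean in the cerebellum-rich and 53.2% in the forebrain-containing libraries. A 2-sided exact permutation test that exchanged genotypes within library type gave p = 0.005, the smallest that its 200 arrangements allow. This test did not use the shared sample codes.

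The KO was then compared with WT over all 17982 genes with library type as a term, by limma on log2(value + 1). No gene passed a Benjamini-Hochberg adjusted p of 0.05 (0 of 17982, 0.0%). An unadjusted p below 0.05 was found for 344, fewer than a 0.05 share of 17982. Shank2 differed by -1.12 (SE 0.17), with an adjusted p of 0.86 in limma. A fit that did not call the targeted gene cannot show that other genes were unchanged. DESeq2 on the recovered reads called 4 genes, Gm26793, Cdh24 and Gm10800 higher and Shank2 lower, and edgeR and limma-voom called 0. The other genes with the smallest p in limma were Gm26793, Cdh24, Scn3b and Lgi2, at 2.67 (SE 0.47), 0.38 (SE 0.08), 0.51 (SE 0.12) and -0.41 (SE 0.10). Cdh24 is a cadherin, and Lgi2 a secreted synaptic protein. Shank1 and Shank3 differed by 0.18 (SE 0.14) and -0.08 (SE 0.17).

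Whether the KO effect differed between the library types was tested by a genotype by type interaction in the same fit. Again no gene passed (0 of 17982, 0.0%), and 0 by edgeR and limma-voom. An unadjusted p below 0.05 was found for 337, again fewer than a 0.05 share of 17982. DESeq2 called 4, Stk32a, Mir124-2hg, Mybpc3 and Scn4b. Shank2 differed by -1.30 (SE 0.26) in the cerebellum-rich and by -0.97 (SE 0.23) in the forebrain-containing libraries on the log2 scale, and the interaction was -0.33 (SE 0.35). The interaction of Shank2 had an adjusted p of 1.00 in limma, which does not show that the KO acts alike in both types. The smallest interaction p values in limma were those of Gm16201, Stk32a, Mir124-2hg, Ptpn7 and Sec14l3, at -3.70, 1.25, 0.72, 3.66 and 3.57. Their SEs were 0.64, 0.24, 0.14, 0.78 and 0.76. Gm16201, Ptpn7 and Sec14l3 averaged only 15.8, 21.4 and 26.5, near the limit of 10, so their differences rest on few reads. Sec14l3 was 0 in each cerebellum-rich WT library, and 16.5 and 4.56 in KO 5 and 6. Without the library type term, 47 genes had an unadjusted p below 0.05, also fewer than a 0.05 share, and 0 passed.

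**Figure D5:**
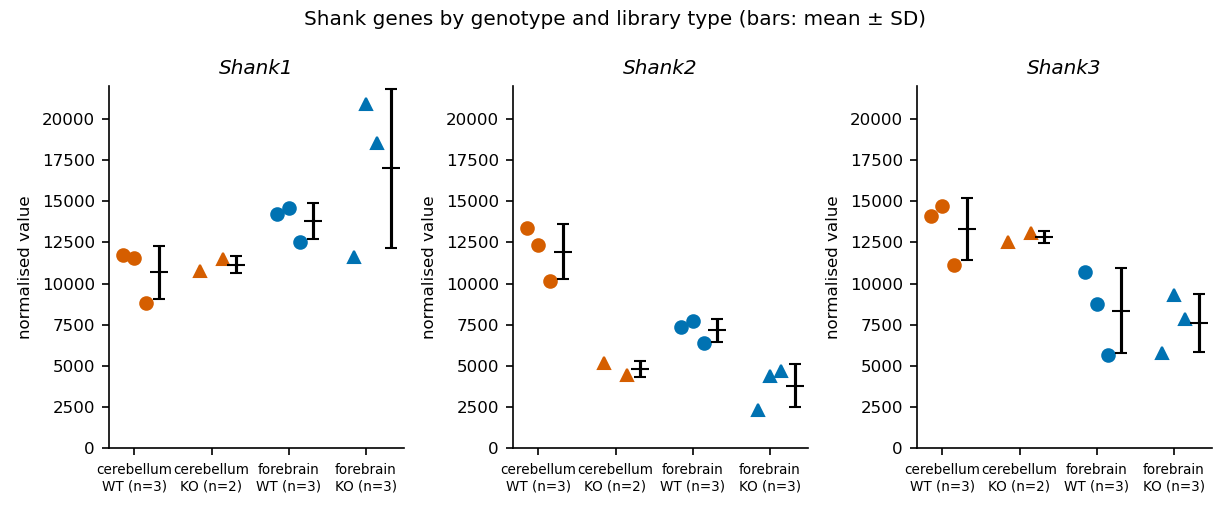
Normalised values of Shank1, Shank2 and Shank3 by genotype and library type, 1 point per library with mean ± SD beside them. Shank2 is lower in KO than in WT within each type, and its WT values are higher in the cerebellum-rich (10131 to 13358) than in the forebrain-containing libraries (6382 to 7729).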

How the data were processed

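RNA of 24 mouse brains was sequenced from libraries made with an Illumina TruSeq RNA kit, per the labels' protocols. Per the submitters' processing notes, reads were trimmed with Trimmomatic 0.35 and aligned with TopHat2 2.1.0, and HTSeq and DESeq2 were used, on GRCm38; the sources used here state neither annotation nor strand setting. The deposited signal is 1 value per gene and library, read counts divided by a size factor per library, as read from the values: 100% of nonzero values were whole multiples of 1 step within 0.01 reads. Of 46078 gene identifiers, 98.2% matched a symbol in GENCODE M21. Sample columns left unused numbered 0.

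Library types were set by Emx2 (below 10, at least 200 after rounding). Genes averaging 10 or more were used, with a pseudocount of 1, so that log2(value + 1) shrinks the folds of weakly expressed genes. The composition contrast has no test. KO was compared with WT by limma 3.58.1 with an intensity trend, and by edgeR 4.0.16, DESeq2 1.42.0 and limma-voom on recovered reads, with adjusted p by Benjamini-Hochberg; the fits were tested on simulated data. Same-numbered WT and KO libraries share the start of their sample codes, whose meaning the labels do not state. Their deviations from the mean of each type and genotype, taken over 2 or 3 libraries, cannot show whether they are pairs. The numbers were not used as pairs in limma, DESeq2 or the permutation test. A fit with the number as a block was an alternative.

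Named genes were Cbln3, Emx2 and Neurod6, the 10 largest differences per direction with a mean of at least 100, up to 6 members per list and direction, members of receptor, channel, transporter, cerebellin, scaffold and patterning lists, and, for the KO, Shank genes and the 5 smallest p. Some genes that this rule names are not reported here. The members and the 31 gene lists were chosen with earlier results of these data known. Alternatives were other pseudocounts, no filter, TMM scaling, 1 batch, 1 genotype, KO 2 in either type and each library left out.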

Additional observations from a re-analysis of the deposited data

Results flagged for a closer look

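The mean log2 distance of a list's genes from their mean over the 11 libraries was taken per library. Of 62 groups of such list scores, 6 held 1 library far from the others, where chance flags about 1 in 20. The groups use the same libraries and some lists share genes, such as Lhx2, so the groups are not independent. The count of 6 therefore cannot show an excess over chance. Among the forebrain-containing libraries, WT 3 had a pituitary score of 5.87 (the others -0.64 to 0.32) and a Purkinje cell score of -0.52 (the others -1.90 to -1.40). KO 4 had an olfactory bulb score of 3.47 (the others 0.28 to 0.61). Among the cerebellum-rich libraries, WT 6 had a choroid plexus score of 3.82 (the others -1.91 to -0.45). KO 5 had a score of -1.36 for cortical and hippocampal excitatory neurons (the others -2.47 to -2.30) and of -1.08 for cortical interneurons (the others -2.21 to -1.97).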

How the results depend on the processing

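Counts of 570 genes higher and 1153 lower stayed within 1.5 times under every alternative run. They were 593 and 1201 with a pseudocount of 0.1, 499 and 991 with 5, and 675 and 1102 within the second batch. With each library left out they were 559 to 620 and 1128 to 1262. No filter on low values gave 721 and 1412. KO 2 counted as cerebellum-rich gave 509 and 877, and KO 2 counted as forebrain-containing gave 415 and 842. In the latter, 415 of the 570 and 833 of the 1153 were counted again. Within the second batch, 463 of the 570 and 859 of the 1153 were counted again. Over 152 named genes the difference kept its sign in 3020 of 3034 recomputed values, and the exceptions were Camk2b, Gria1, Lgi2, Scn1a, Scn4b and Scn8a, whose ranges overlapped between the types. The comparison of KO 4 with first-batch libraries was chosen after seeing the data. In the KO comparison, 0 genes passed in limma, and DESeq2 called 4 for the KO and 4 for the interaction. Leaving out each library gave 0 for the KO and 0 to 1 for the interaction, the 1 being Crym without KO 6. With the replicate number as a block, 0 genes passed for the KO (392 at an unadjusted p below 0.05) and 0 for the interaction (293). Deviations of same-numbered WT and KO libraries had correlations of -0.248 to 0.151, where number 4 spans both types and number 2 is not covered. With 2 or 3 libraries behind each mean, these values cannot show whether the libraries are pairs. The shared numbers were not taken as pairs.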
